A study of Homo sapiens with 39 samples.

Results

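The immunoglobulin heavy and light chain genes were followed together with JCHAIN, the joining chain of polymeric antibody, and MZB1, a chaperone cofactor of the endoplasmic reticulum (ER) that helps secretory cells assemble immunoglobulin. Rows of the count table were taken where the symbol began with the letters of a constant or variable gene of the heavy, kappa or lambda locus and the annotated type was a constant or variable gene. Pseudogenes, diversity segments and 2 rows typed as protein coding were left out, among the latter IGHMBP2, which is no immunoglobulin gene. This gave 145 of the 57773 rows: 9 heavy constant, 50 heavy variable, 1 kappa constant, 43 kappa variable, 4 lambda constant and 36 lambda variable genes, with JCHAIN and MZB1. The rule uses names and types only, not measured values, but it was proposed with earlier results of these data known.

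RNA of JJN3, an established human multiple myeloma cell line, was sequenced in 39 libraries. Cells had been exposed to GSK-J4, an inhibitor of the KDM6 histone demethylases, to ZnSO4, a zinc salt, or to the vehicle DMSO for 1, 3, 6 or 24 h, and an unexposed group was labelled T0, which makes 13 groups of 3 libraries. All groups grew in RPMI with 10% FCS and come from 1 line, doses were not given in the sources used here, and the treatment protocol names 3, 6 and 24 h but not 1 h, for which the sample labels were followed. Nothing in the labels says that the 3 libraries of a group came from separate cultures, so p-values here speak only of the spread among the libraries sequenced, which could be technical.

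An antibody is built from paired identical heavy and light chains. Each chain joins a variable part, made from a rearranged V gene, to a constant part, which for heavy chains sets the class and subclass: IGHG1 to IGHG4 encode the gamma chains of IgG, IGHA1 and IGHA2 the alpha chains of IgA, IGHE the epsilon, IGHM the mu and IGHD the delta chain. A plasma cell commits to either kappa or lambda as its light chain, and a myeloma clone normally carries a single productive rearrangement of each chain. The J chain links IgA and IgM units into polymers.

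Libraries held 4347745 to 10695671 counts (median 6010529), so that 3 counts in a library equalled 0.281 to 0.69 CPM (counts per 1000000 counts). No 2 libraries of a group agreed within counting noise (chi-squared per gene 1.21 to 7.32 over 39 pairs). Markers of plasma cells summed to 11186 to 13736 CPM in a library. This sum includes JCHAIN and MZB1 themselves, and JCHAIN alone averaged 10496 CPM. Markers of other cells summed to 9.94 to 19.4 CPM for mature B cells, 0.569 to 2.55 CPM for T cells, 0.34 to 2.07 CPM for myeloid cells, 0.338 to 4.17 CPM for NK cells, 0.251 to 2.66 CPM for erythroid cells and 5.86 to 64.2 CPM for stromal and endothelial cells. The mitochondrially encoded share lay at 4.38% to 5.54% for 24 h libraries and at 2.92% to 3.9% for all earlier libraries. Replicate 3 of DMSO at 6 h stood apart from replicates 1 and 2 (3.05 from each, against 1.46 between those), as did the T0 libraries from each other (3.15 to 7.32). Replicate 3 of ZnSO4 at 1 h, the library with the most counts, also stood apart (3.3 and 3.11 from replicates 1 and 2, against 1.59 between those). To a lesser degree so did replicate 3 of DMSO at 24 h (2.27 and 2.22, against 1.5). The same was seen for replicate 2 of ZnSO4 at 6 h (2.58 and 2.54, against 1.82). Levels below are CPM scaled with TMM factors, and log2 fold changes (log2FC) come with their standard error.

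Almost all V gene counts fell on 1 kappa gene and its near copy, so these reference sequences are shown first. The coding sequences of the germline genes are from GENCODE 29. They are not the rearranged genes of JJN3. IGKV3-15 lies on chromosome 2 at chr2:89085177-89085787 (GRCh38, minus strand) and IGKV3D-15 at chr2:90114838-90115402 (plus strand). Over the 345 coding bases compared the pair is 99.13% identical, and bases 201 to 300, which hold all 3 that differ (in capitals), are printed.
IGKV3-15: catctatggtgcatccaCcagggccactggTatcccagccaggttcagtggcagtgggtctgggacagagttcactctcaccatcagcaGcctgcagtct
IGKV3D-15: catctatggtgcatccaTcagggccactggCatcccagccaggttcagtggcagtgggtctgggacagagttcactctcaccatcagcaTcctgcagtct
Reads that cover none of the differing bases match both copies. How the authors' counting shared such reads is not given, so the split between copies is uncertain. The same holds for the gamma constant genes, where the coding sequence of IGHG1 was 95.91% identical to IGHG2, 96.36% to IGHG3 and 95.31% to IGHG4, and for IGHA1 and IGHA2 at 96.08%.

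Of the 145 genes 60 had a count in at least 1 library and 85 had none in any, which allows each of these a level of up to 0.0118 CPM over the 254599824 counts of all libraries. JCHAIN took 2678483 of the 3175136 counts on the 145 genes, or 84.4%. Kappa variable genes took 12.5%, heavy constant genes 2.02% and MZB1 1.07%. The rest was small: 562 counts on IGKC, the only kappa constant gene, 568 on lambda variable, 68 on lambda constant and 32 on heavy variable genes, all over 39 libraries. This floor and the counting interval given below cover counting error only.

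JCHAIN was the gene with the most counts of the whole table in each of the 39 libraries. In bulk RNA such as this, fewer cells that express a gene and less RNA per cell cannot be told apart. Set on a per-length scale (mean CPM per 1000 exon bases of GENCODE 29, which may not be the annotation used for counting), JCHAIN stood at 6257, IGKV3-15 at 3276, IGKV3D-15 at 296, MZB1 at 57.7, IGHG2 at 47.1 and IGHG1 at 36. IGKC stood at 4.24 on this scale. The variable gene IGKV3-15 thus had a far higher level per length than IGKC, the constant gene with which every kappa chain is made; the annotation used for counting is not given, and its part in this was not tested.

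In the heavy chain locus counts lay on the constant genes. IGHG2 averaged 129 CPM over the 39 libraries and IGHG1 99.3 CPM, then came IGHA2 with 5.71, IGHG3 with 4.81, IGHA1 with 4.03, IGHG4 with 2.78 and IGHE with 2.27 CPM. IGHM had 9 counts in all libraries together and IGHD had 0. Of the 50 heavy variable genes 14 had a count, and the highest were IGHV3OR15-7 with 7 counts and IGHV1OR15-1, IGHV3-64 and IGHV4-59 with 4 counts each. In these counts on germline genes no heavy variable gene stood beside the gamma constant genes as IGKV3-15 did among kappa genes. Whether reads of a rearranged heavy variable gene were lost in alignment or counting was not tested.

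The lambda genes taken by the rule were close to the floor. IGLV3-9 had 235 counts over all libraries, IGLV3-12 had 137 and IGLV6-57 had 63. The lambda constant genes IGLC3, IGLC7 and IGLC2 had 49, 12 and 7 counts. IGLL5, a gene related to the surrogate light chain and no member by the symbol rule, overlaps the lambda constant gene IGLC1 in GENCODE 29 and averaged 110 to 178 CPM in the 6 h and 24 h groups, as given further on. Over all libraries IGLL5 had 32882 counts, beside 33461 on IGHG2, while IGLC1 had 0. How reads over the overlap were assigned is not given, so the 0 of IGLC1 does not show that this part of the lambda locus was silent.

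The filter on low counts passed 15 of the 145 genes into a fit of 14460 genes: JCHAIN, MZB1, 7 heavy constant genes, IGKC, 4 kappa variable genes and IGLV3-9. Group means of JCHAIN ranged from 9351 CPM (ZnSO4 at 6 h) to 11907 CPM (GSK-J4 at 24 h), a ratio of 1.27. Those of IGKV3-15 ran from 1278 CPM (ZnSO4 at 3 h) to 1789 CPM (GSK-J4 at 24 h), a ratio of 1.40. MZB1 and IGHG2 varied more, with ratios of 1.85 and 2.17 between their highest and lowest groups.

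**Figure D1:**
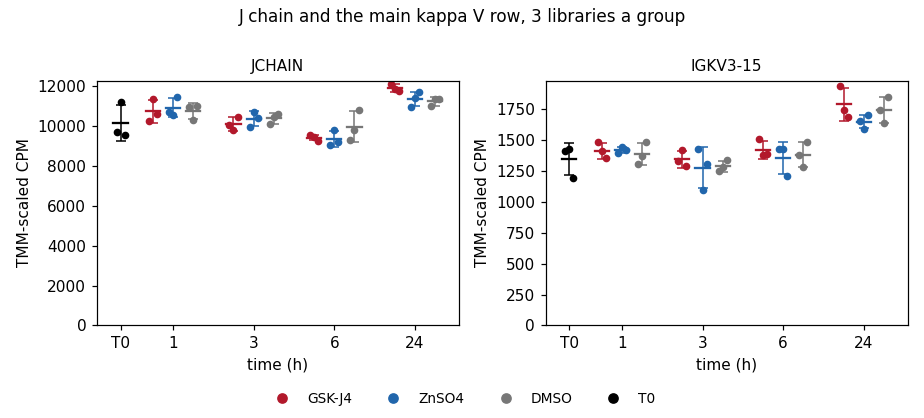
TMM-scaled CPM (vertical axes, from 0) of JCHAIN and IGKV3-15 in each library (points) by time in h and treatment, with the group mean (bar) and SD (whiskers, n = 3). JCHAIN lies between 9033 and 12123 CPM and IGKV3-15 between 1099 and 1940 CPM in all libraries.

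The comparison of GSK-J4 with DMSO at the same time asks which of these transcripts responded to the demethylase inhibitor. Among the gamma constant genes IGHG1 and IGHG2 were lower with GSK-J4 at 6 and 24 h, IGHG3 at 6 h and IGHG4 at 24 h, while JCHAIN and IGKV3-15 did not pass the test. Of the 15 genes tested 4 were lower at 6 h and 4 at 24 h by edgeR's quasi-likelihood test with Benjamini-Hochberg adjustment, and 0 were higher at either time. Over all genes 20.4% were called at 6 h (10.5% lower) and 32% at 24 h (16.8% lower). The gamma constant genes called are near copies, and how reads were shared among them is not given. Their calls, here and below, need not be separate results, so the counts cannot be set against those shares as if they were. The median log2FC of the 15 was -0.16 at 6 h and 0.04 at 24 h, beside 0.01 and 0.02 over all genes. The mitochondrial share was 3% to 3.14% with GSK-J4 and 3.47% to 3.55% with DMSO at 6 h, without overlap, and 4.38% to 4.81% with GSK-J4 and 4.75% to 5.19% with DMSO at 24 h; its part in the results was not tested.

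IGHG2 at 6 h stood at 81.9, 93.8 and 85.7 CPM in GSK-J4 libraries, against 123, 121 and 156 CPM in DMSO libraries. All 3 GSK-J4 libraries were below all DMSO libraries, and IGHG2 fell by 0.61 ± 0.089 on the log2 scale (edgeR adjusted p = 1.6e-07). The neighbouring gamma 1 gene IGHG1 stood at 75.4, 69.1 and 72.6 CPM in GSK-J4 libraries, against 96.6, 94.8 and 125 CPM in DMSO libraries. Here too the groups did not overlap, with a log2FC of -0.54 ± 0.09 (edgeR adjusted p = 3.7e-06). The highest DMSO value of both genes, and of IGHG3 and MZB1, was that of replicate 3, the library that stood apart; without it IGHG2 fell by 0.49 and IGHG1 by 0.4, both still called.

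IGHG3 was much lower in level, at 2.71, 2.23 and 2.11 CPM with GSK-J4 and 4.69, 4.63 and 7.41 CPM with DMSO at 6 h, or 10 to 19 counts a library against 27 to 47. It fell by 1.22 ± 0.28 (log2; edgeR adjusted p = 0.00072), without overlap, and by 0.96 without DMSO replicate 3 (edgeR adjusted p = 0.025). MZB1 stood at 119, 103 and 99.4 CPM with GSK-J4 and 124, 122 and 148 CPM with DMSO. Its groups did not overlap on this scale and its log2FC was -0.29 ± 0.091 (edgeR adjusted p = 0.018). The call was lost without DMSO replicate 3 or without GSK-J4 replicate 2 or 3 (highest edgeR adjusted p = 0.19). As a share of raw counts the MZB1 groups overlapped (exact permutation p = 0.2).

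**Figure D2:**
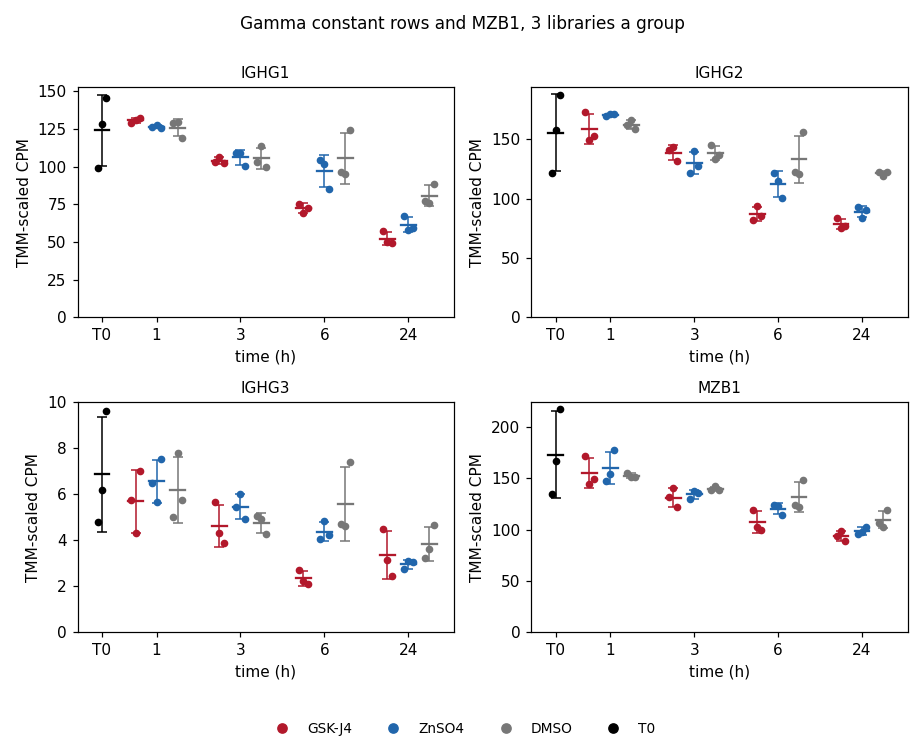
TMM-scaled CPM (vertical axes, from 0) of IGHG1, IGHG2, IGHG3 and MZB1 in each library (points) by time in h and treatment, with the group mean (bar) and SD (whiskers, n = 3). At 6 h the GSK-J4 points of all 4 genes lie below the DMSO points, and the T0 libraries are widely spread, for MZB1 between 135 and 218 CPM.

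IGHG2 and IGHG1 were lower with GSK-J4 at 24 h too. IGHG2 had 83.6, 75.2 and 76.8 CPM in GSK-J4 libraries and 122, 119 and 123 CPM in DMSO libraries, a log2FC of -0.63 ± 0.09 (edgeR adjusted p = 7.8e-08). IGHG1 had 57.3, 50.0 and 49.4 CPM in GSK-J4 libraries and 77.4, 75.7 and 88.5 CPM in DMSO libraries, a log2FC of -0.62 ± 0.097 (edgeR adjusted p = 5.1e-07). The groups of neither gene overlapped. The difference between the 24 h and the 6 h effect was -0.01 (95% interval -0.27 to 0.24) for IGHG2 and -0.08 (-0.35 to 0.19) for IGHG1, neither past the threshold (edgeR adjusted p = 0.97 and 0.82). In this test of the change in effect, which called 5.75% of all genes (3.04% lower), 1 of the 15 genes was called lower, IGKV3D-11.

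IGHG4 at 24 h stood at 2.15, 1.29 and 0.879 CPM with GSK-J4 and 2.43, 3.47 and 3.27 CPM with DMSO, on 5 to 12 counts a library against 18 to 27. It fell by 1.08 ± 0.37 (log2; edgeR adjusted p = 0.018), and the call was lost without DMSO replicate 2 or GSK-J4 replicate 2 or 3. IGHG3 at 24 h averaged 3.36 ± 1.02 CPM with GSK-J4 and 3.84 ± 0.744 CPM with DMSO (SD, n = 3 each) and was not called. The fourth call, the V gene IGKV3D-11, rested on 1 library and is described below.

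IGHA1 gave values on the other side. It stood at 6.09, 6.46 and 5.45 CPM with GSK-J4 at 24 h and 3.79, 3.99 and 3.9 CPM with DMSO, without overlap, but its log2FC of 0.62 ± 0.25 missed the threshold (edgeR adjusted p = 0.054; 0.026 with library totals in place of TMM factors). MZB1 at 24 h averaged 93.6 ± 5.01 CPM with GSK-J4 and 109 ± 8.21 CPM with DMSO, also short of it (log2FC -0.22 ± 0.094, edgeR adjusted p = 0.062; 0.042 without DMSO replicate 2). JCHAIN stood at 12123, 11861 and 11736 CPM with GSK-J4 and 10986, 11370 and 11376 CPM with DMSO at 24 h. Its log2FC there was 0.08, with a 95% interval of -0.01 to 0.18, and at 6 h -0.08 (-0.18 to 0.01), neither called. With library totals, on which the median log2FC of all genes at 24 h was 0.11 against 0.02 with TMM factors, JCHAIN was called higher at 24 h, at 0.17 (edgeR adjusted p = 0.0013). IGKV3-15 gave 0.04 at both times, within -0.09 to 0.17 at 6 h and at 24 h. Markers of mature B cells summed to 17.8 to 20.9 CPM with GSK-J4, 13.95 to 18.1 CPM with ZnSO4 and 11.4 to 13.5 CPM with DMSO at 24 h, and 1 of these 8 markers, the kinase gene BLK, was called higher with both compounds, while FCER2 had no count with ZnSO4 or DMSO and CD22 none with ZnSO4; the part of these cells in the 24 h results was not tested.

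At 1 h 0 of the 15 genes were called (0.104% of all genes were) and at 3 h 0 (2.38%), by edgeR and also by DESeq2. At an unadjusted p under 0.05 there were 1 at 1 h, IGKV3D-11, and 0 at 3 h. IGHG2 averaged 139 ± 6.56 CPM with GSK-J4 and 138 ± 6.21 CPM with DMSO at 3 h (SD, n = 3 each).

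**Figure D3:**
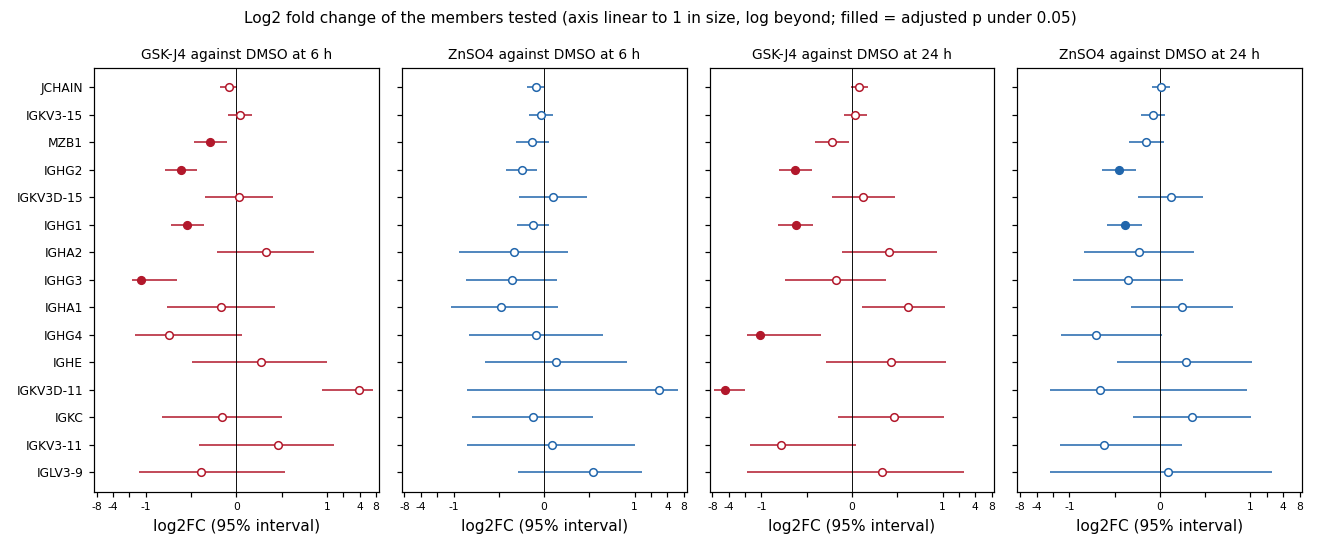
Log2FC (horizontal axes, linear up to 1 in size and logarithmic beyond) with its 95% interval for the 15 genes tested, GSK-J4 or ZnSO4 against DMSO at 6 and 24 h; filled points have an adjusted p under 0.05. IGHG2 and IGHG1 are filled in 3 of the 4 panels, and the wide intervals belong to genes with few counts.

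With ZnSO4 the calls came at 24 h and were again IGHG2 and IGHG1. At that time 2 of 15 genes were lower with ZnSO4 and 0 were higher by edgeR's quasi-likelihood test, where 9.56% of all genes were called (5.58% lower). IGHG2 stood at 92.7, 83.6 and 90.6 CPM in ZnSO4 libraries, against 122, 119 and 123 CPM in DMSO libraries, and fell by 0.45 ± 0.092 on the log2 scale (edgeR adjusted p = 0.0004). IGHG1 had 67.3, 57.9 and 59.3 CPM with ZnSO4 and 77.4, 75.7 and 88.5 CPM with DMSO, a log2FC of -0.39 ± 0.098 (edgeR adjusted p = 0.0049). Neither gene's groups overlapped, but the IGHG1 call was lost without DMSO replicate 3 or ZnSO4 replicate 2 (highest edgeR adjusted p = 0.059), which left 1 gene called. Both compounds were compared with the same DMSO libraries. The mitochondrial share was 5.21% to 5.54% with ZnSO4 and 4.75% to 5.19% with DMSO at 24 h, without overlap, and its part in these results was not tested. Of the 8 plasma cell markers 5 were lower and 0 higher with ZnSO4 at 24 h (median log2FC -0.25). At 6 h 5 were lower and 0 higher too (median -0.24, where 9.32% of all genes were called). With GSK-J4 2 were higher and 3 lower at 6 h, and 2 higher and 2 lower at 24 h. The part of this list in the results was not tested.

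With ZnSO4 at 1, 3 and 6 h 0 of the 15 genes were called by edgeR or DESeq2, against 0.678%, 10.8% and 9.32% of all genes. At an unadjusted p under 0.05 there were 0, 1 and 1, IGLV3-9 at 3 h and IGHG2 at 6 h. IGHG2 at 6 h averaged 112 ± 10.8 CPM with ZnSO4 and 133 ± 19.8 CPM with DMSO (SD, n = 3 each; log2FC -0.25 ± 0.087, edgeR adjusted p = 0.059). Without DMSO replicate 1 or 2, or ZnSO4 replicate 1, 1 gene was called at 6 h. At 3 h COL1A1 and COL1A2, 2 of the 5 stromal and endothelial markers, were lower with ZnSO4, the list summing to 7.98 to 22.2 CPM with ZnSO4 and 15.8 to 59.7 CPM with DMSO; its part in the results was not tested.

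Set directly against each other at 6 h, GSK-J4 libraries were lower than ZnSO4 libraries in 3 of 15 genes and higher in 0 (18.4% of all genes were called, 9.88% lower). IGHG2 had 81.9, 93.8 and 85.7 CPM with GSK-J4 and 121, 115 and 100 CPM with ZnSO4, a log2FC of -0.36 ± 0.092 (edgeR adjusted p = 0.0023). IGHG1 had 75.4, 69.1 and 72.6 CPM with GSK-J4 and 104, 102 and 85.1 CPM with ZnSO4, a log2FC of -0.42 ± 0.093 (edgeR adjusted p = 0.0005). IGHG3 also passed (-0.86 ± 0.3, edgeR adjusted p = 0.037), but not once any 1 of the 6 libraries was left out (0.054 to 0.11), when 2 genes were called.

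At 24 h the compounds did not differ past the threshold in any of the 15 genes by edgeR or DESeq2 (24.5% of all genes were called; 3 of the 15 at an unadjusted p under 0.05). The difference in IGHG2 was -0.18 on the log2 scale, with a 95% interval of -0.37 to 0.02, and in IGHG1 -0.23, with an interval of -0.44 to -0.01 (edgeR adjusted p = 0.2 and 0.11). Leaving out ZnSO4 replicate 1 or 3 gave 1 call, IGKV3D-11. At 1 h 0 genes were called by either tool (0.664% of all genes; 0 at an unadjusted p under 0.05), and at 3 h 1, IGLV3-9, which was higher with GSK-J4 (10.1% of all genes, 3.99% higher).

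The comparison of DMSO at 24 h with T0 shows what time and the vehicle did without a compound, and those cannot be told apart. DMSO at 24 h differed from T0 in 8 of 15 genes, 3 higher and 5 lower, in a comparison where 63.2% of all genes were called (30.5% higher, 32.7% lower), so the share of 53.3% among the 15 was below that of all genes. MZB1 had 107, 103 and 119 CPM in DMSO libraries at 24 h and 135, 167 and 218 CPM in T0 libraries, and fell by 0.65 ± 0.087 on the log2 scale (edgeR adjusted p = 2.1e-09). IGHG1 had 77.4, 75.7 and 88.5 CPM in DMSO libraries and 99, 128 and 145 CPM in T0 libraries, a log2FC of -0.62 ± 0.085 (edgeR adjusted p = 4.2e-09). For both genes the 24 h libraries lay below every T0 library.

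IGHG2 fell by 0.35 ± 0.083 (edgeR adjusted p = 0.00023), with 122, 119 and 123 CPM in DMSO libraries and 122, 158 and 187 CPM in T0 libraries, and replicate 1 of T0 lay among the DMSO values. IGHG3 averaged 3.84 ± 0.744 CPM in DMSO libraries at 24 h and 6.85 ± 2.5 CPM in T0 libraries (log2FC -0.79 ± 0.23, edgeR adjusted p = 0.0024), and was not called without T0 replicate 3 (edgeR adjusted p = 0.062). IGKV3-15 stood at 1741, 1638 and 1849 CPM in DMSO libraries, above 1412, 1431 and 1195 CPM in T0 libraries, and rose by 0.37 ± 0.065 (log2, edgeR adjusted p = 1.4e-06). The size of this rise depended on the processing. Over the other scalings, filters, tools and sample sets its log2FC ran from 0.15 to 0.4, still called (highest adjusted p = 0.042 by edgeR or DESeq2). As a share of raw counts, the kappa variable genes of the 2 groups overlapped (exact permutation p = 0.2). The 24 h libraries also held the larger mitochondrial share given above, and COL1A1 and COL1A2 were higher there than at T0 (the stromal and endothelial list summed to 8.26 to 42.6 CPM against 6.68 to 22 CPM); the part of either in these results was not tested.

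JCHAIN was 0.15 ± 0.048 higher in DMSO libraries at 24 h than in T0 libraries on the log2 scale (11244 ± 224 CPM against 10158 ± 914 CPM, SD, n = 3 each; edgeR adjusted p = 0.0064), but its direction turned to -0.076 with library totals in place of TMM factors, and without T0 replicate 3 it was not called (edgeR adjusted p = 0.062). With library totals the median log2FC of all genes in this comparison was -0.24, against -0.02 with TMM factors, so that relative to the median JCHAIN was higher under both. At 1, 3 and 6 h 0 genes differed between DMSO and T0 by edgeR or DESeq2 (0.0346%, 0.0968% and 0.0138% of all genes were called; 1, 3 and 3 of the 15 at an unadjusted p under 0.05). MZB1 came closest, with 124, 122 and 148 CPM in DMSO libraries at 6 h and 135, 167 and 218 CPM in T0 libraries (log2FC -0.38 ± 0.087, edgeR adjusted p = 0.079). Without T0 replicate 1, the lowest T0 library for MZB1, IGHG1 and IGHG2, 1 gene was called at 1 h (MZB1) and 4 at both 3 and 6 h, all lower (MZB1, IGHG1, IGHG2 and IGHA1); without T0 replicate 2 there was 1 at 6 h, and without DMSO replicate 3 there were 3.

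V genes with few counts gave the most uneven values. IGKV3D-11 had 0 to 13 counts in 33 libraries and 34 to 177 counts in 6 libraries, never in more than 1 library of a group. These were replicate 2 of GSK-J4 at 1 h (67 counts), replicate 1 of ZnSO4 at 1 h (54), replicate 2 of GSK-J4 at 6 h (88), replicate 2 of ZnSO4 at 6 h (34), replicate 2 of ZnSO4 at 24 h (75) and replicate 2 of DMSO at 24 h (177). Its near copy IGKV3-11 had 3 to 20 counts in every library, and no excess in those 6, where it had 6 to 16.

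The calls for IGKV3D-11 turned on such single libraries. With the minimum count of 10 scaled to library size, IGKV3D-11 entered the test only through the 6 libraries of 34 to 177 counts. The same libraries make its calls, so those calls are no evidence of a response. With GSK-J4 at 6 h its log2FC was 3.95 ± 1.5 and missed the threshold (edgeR adjusted p = 0.052), but passed it without GSK-J4 replicate 1 or 3, which left the library of 88 counts with 1 other. At 24 h it had 0.716, 0.185 and 0 CPM with GSK-J4 and 1.76, 22.8 and 0.468 CPM with DMSO, groups that overlap, and a log2FC of -4.76 ± 1.4 (edgeR adjusted p = 0.0058), which was -1.88 and not called without DMSO replicate 2 (edgeR adjusted p = 0.53). Against T0, with 0.136, 0.131 and 0.393 CPM, DMSO at 24 h was higher by 5.31 ± 1.4 (edgeR adjusted p = 0.00098), and by 2.42 and not called without the same library (edgeR adjusted p = 0.32). The distal copy of the main pair, IGKV3D-15, took 5.44% to 14% of the counts on IGKV3-15 and IGKV3D-15 (median 7.17%), was highest in replicate 2 of DMSO at 1 h, and was called in 0 of the comparisons of a compound with DMSO.

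IGLV3-9, a lambda V gene, was lowest at 24 h. All 9 libraries of 24 h had 0 to 3 counts, where T0 libraries had 13, 10 and 7 and the libraries of 1 to 6 h 2 to 15. DMSO libraries at 24 h held 3 counts against 30 in T0 libraries, a ratio of 0.0929 with an exact counting interval of 0.0181 to 0.299 (edgeR adjusted p = 2e-05). With a minimum count of 10 in the filter, IGLV3-9 entered the test through libraries of earlier times only. A gene admitted in this way is more apt to show a fall at 24 h than a rise. At 3 h it had 11, 9 and 8 counts with GSK-J4 and 2, 2 and 2 with ZnSO4, a log2FC of 1.87 ± 0.59 (edgeR adjusted p = 0.028). That call was lost without GSK-J4 replicate 1 or ZnSO4 replicate 2 or 3, when 0 genes were called, and with ZnSO4 at 3 h against DMSO, with 4, 5 and 4 counts, the gene was not called (edgeR adjusted p = 0.18).

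**Figure D4:**
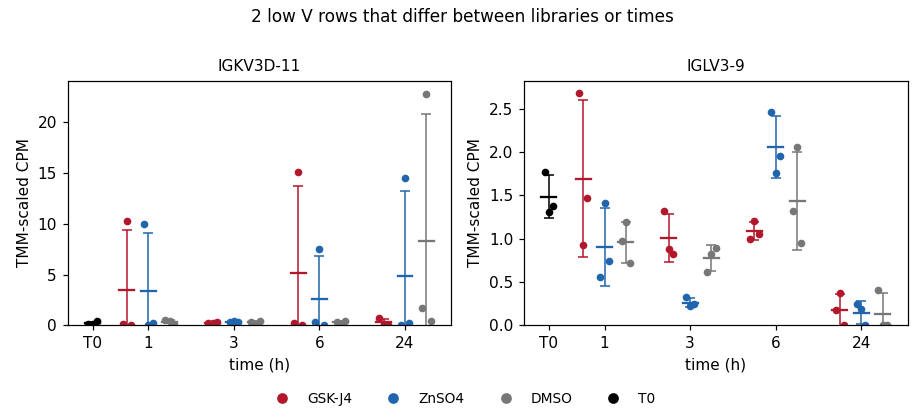
TMM-scaled CPM (vertical axes, from 0) of IGKV3D-11 and IGLV3-9 in each library (points) by time in h and treatment, with the group mean (bar) and SD (whiskers, n = 3). IGKV3D-11 is high in 6 single libraries, up to 22.8 CPM, and IGLV3-9 is lowest in the 24 h groups.

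As a share of all counts, the 145 genes made up 1.32% ± 0.02 of GSK-J4 libraries, 1.2% ± 0.0401 of ZnSO4 libraries and 1.19% ± 0.0153 of DMSO libraries at 24 h (SD, n = 3 each), and 1.24% ± 0.0933 of T0 libraries. GSK-J4 and DMSO did not overlap at 24 h, and JCHAIN carried most of the difference, with 1.12% ± 0.00749 of counts in GSK-J4 libraries and 0.991% ± 0.0155 in DMSO libraries. The summed share of the heavy constant genes, nearly all of it IGHG1 and IGHG2, was at 24 h 0.0142% ± 0.000687 with GSK-J4, 0.0149% ± 0.000864 with ZnSO4 and 0.0193% ± 0.000741 with DMSO, without overlap of either compound with DMSO. The alpha gene IGHA1 did not follow this sum (6 ± 0.512 CPM with GSK-J4, 4.65 ± 0.365 CPM with ZnSO4 and 3.89 ± 0.101 CPM with DMSO). IGHE averaged 2.7 ± 0.806, 2.36 ± 1.12 and 2.03 ± 0.794 CPM in the same order. Its libraries overlapped between the groups, on 5 to 18 counts each, so the order of its means shows no direction. Neither gene was called. Each difference in share named as without overlap, and that of JCHAIN, had an exact two-sided permutation p of 0.1, the smallest that 3 against 3 libraries can give. With 9 comparisons made per class none passed (adjusted p of 0.225 for the heavy constant genes, 0.45 for the 145 genes and 0.9 for JCHAIN). In the share of the 145 genes, DMSO at 24 h overlapped with ZnSO4 at 24 h and with T0 (exact permutation p = 0.8 and 0.5). Shares are of raw counts, and so carry the shift of all genes given above for library totals.

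Genes that act around immunoglobulin were counted in 6 lists. Over all genes 20.4% were called with GSK-J4 against DMSO at 6 h (10.5% lower) and 32% at 24 h (16.8% lower). With ZnSO4 the shares were 9.32% at 6 h and 9.56% at 24 h (5.58% lower). A list count near these shares is no result about the list. Some of these counts changed when 1 library was left out, and at 6 and 24 h each library that moved a count by over 1.5 times is named beside it. Among 19 tested of 21 transcription regulators of immunoglobulin genes and plasma cells, 5 were higher and 1 lower with GSK-J4 against DMSO at 6 h, and 5 higher and 5 lower at 24 h, while with ZnSO4 there were 1 higher and 5 lower at both times. With GSK-J4 at 24 h 3 were higher and 3 lower without DMSO replicate 3 or GSK-J4 replicate 2 or 3. The median log2FC of the list was 0.09 and 0.07 with GSK-J4 and 0.01 and -0.02 with ZnSO4 at 6 and 24 h, beside medians of all genes of at most 0.02 in size. The coactivator POU2AF1 (OCA-B), which binds octamer factors at immunoglobulin promoters, had 216, 192 and 194 CPM with GSK-J4, 183, 172 and 165 CPM with ZnSO4 and 240, 227 and 310 CPM with DMSO at 6 h. It fell with both, by 0.37 ± 0.082 with GSK-J4 and 0.58 ± 0.083 with ZnSO4 (log2; edgeR adjusted p = 0.00048 and 4.4e-07), and was lower at 24 h too (-0.25 ± 0.085 and -0.35 ± 0.088). The GSK-J4 calls of POU2AF1 were lost without DMSO replicate 3 at 6 h (edgeR adjusted p = 0.055) and without DMSO replicate 3 or GSK-J4 replicate 2 or 3 at 24 h (highest 0.097). XBP1, which drives the secretory programme of plasma cells, was higher with GSK-J4 and lower with ZnSO4, at 456, 463 and 487 CPM with GSK-J4, 281, 291 and 278 CPM with ZnSO4 and 311, 325 and 381 CPM with DMSO at 6 h. GSK-J4 stood 0.73 ± 0.059 above ZnSO4 (log2; edgeR adjusted p = 6.7e-16), while the call of XBP1 with ZnSO4 against DMSO was lost without DMSO replicate 3 (edgeR adjusted p = 0.085).

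IRF4, a master regulator of plasma cells, averaged 920 ± 27.5 CPM with GSK-J4, 675 ± 25.1 CPM with ZnSO4 and 783 ± 15.4 CPM with DMSO at 6 h (SD, n = 3 each), and both differences from DMSO passed (log2FC 0.23 ± 0.06 and -0.21 ± 0.061). At 24 h IRF4 was lower with both, by -0.17 ± 0.059 with GSK-J4 and -0.33 ± 0.06 with ZnSO4. The IRF4 call with ZnSO4 at 6 h was lost without DMSO replicate 3 or ZnSO4 replicate 2 or 3, and that with GSK-J4 at 24 h without DMSO replicate 3 or GSK-J4 replicate 2 or 3 (highest edgeR adjusted p = 0.078 for each). It was already lower with ZnSO4 at 1 h (-0.6 ± 0.06) and at 3 h (-0.69 ± 0.061), when none of the 15 immunoglobulin genes was called. PRDM1 (BLIMP-1), a repressor that sets the plasma cell state, was lower at 24 h with GSK-J4 (-0.34 ± 0.063) and with ZnSO4 (-0.25 ± 0.064). MEF2C, a B cell factor, was higher with GSK-J4 (0.42 ± 0.063) and lower with ZnSO4 (-0.21 ± 0.068, lost without any 1 of 4 of the 6 libraries, DMSO replicates 2 and 3 and ZnSO4 replicates 1 and 3) at 24 h. Before 6 h the list gave 0 higher and 0 lower at 1 h and 1 higher and 0 lower at 3 h with GSK-J4 (XBP1, lost without any 1 of the 6 libraries), and 2 and 3 lower, 0 higher, with ZnSO4. Of all genes 0.104% and 2.38% were called with GSK-J4, and 0.678% and 10.8% with ZnSO4.

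Of 10 genes of immunoglobulin mRNA processing and stability, 3 were lower with GSK-J4 at 6 h and 5 at 24 h, where 0 and 1 were higher, and with ZnSO4 3 and 4 were lower and 0 higher. Of all genes 20.4% and 32% were called with GSK-J4, and 9.32% and 9.56% with ZnSO4, at these times. The median log2FC of the list was -0.07 and -0.11 with GSK-J4 and -0.14 and -0.09 with ZnSO4 at 6 and 24 h. ELL2, an elongation factor that favours the secreted form of heavy chain mRNA, fell with ZnSO4 by 0.35 ± 0.053 at 6 h and 0.29 ± 0.054 at 24 h, and was called at neither time with GSK-J4. TENT5C, a poly(A) polymerase that stabilises immunoglobulin mRNA, was lower at 24 h with GSK-J4 (-0.24 ± 0.052) and ZnSO4 (-0.26 ± 0.053). CSTF2, a polyadenylation factor, was lower with GSK-J4 at 24 h (-0.46 ± 0.089). The splicing regulators HNRNPH2 and HNRNPF were lower with GSK-J4 at 6 h (-0.51 ± 0.084 and -0.31 ± 0.06).

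Of 25 genes that fold and assemble immunoglobulin in the ER, 12 were lower and 1 higher with GSK-J4 at 6 h, and 5 lower and 3 higher at 24 h, whereas with ZnSO4 9 were lower and 0 higher at each of these times. Their median log2FC was -0.12 and -0.06 with GSK-J4 and -0.12 and -0.13 with ZnSO4. Without DMSO replicate 3 at 6 h only 6 were lower and 0 higher with GSK-J4 and 3 lower with ZnSO4; without GSK-J4 replicate 2 there were 7 lower and 1 higher, and without ZnSO4 replicate 3 there were 5 lower. At 24 h 4 were lower and 1 higher with GSK-J4 without DMSO replicate 3 or GSK-J4 replicate 2, and with ZnSO4 5 were lower without DMSO replicate 3 and 4 without ZnSO4 replicate 3. In DMSO at 24 h against T0, 16 were higher and 3 lower (of all genes 30.5% were higher and 32.7% lower). HSPA5 (BiP), which holds unassembled heavy chains, averaged 1372 ± 37.4 CPM with GSK-J4, 1568 ± 64.3 CPM with ZnSO4 and 1748 ± 103 CPM with DMSO at 6 h, and was called for neither compound at 24 h; the ZnSO4 call of HSPA5 was lost without DMSO replicate 3 or ZnSO4 replicate 1. TXNDC5, a disulfide isomerase, fell with ZnSO4 to 89.5 ± 6.89 CPM, against 136 ± 11.3 CPM with DMSO at 6 h, and by 0.61 ± 0.077 (log2) at 24 h. CALR was lower with both compounds at both times (log2FC -0.24 to -0.4), under each left-out library. PDIA4 was too (-0.14 to -0.3), but lost its 6 h calls without DMSO replicate 3 and others (highest edgeR adjusted p = 0.26). DERL3, part of ER-associated degradation, was higher with GSK-J4 at 24 h (0.53 ± 0.088) and lower with ZnSO4 (-0.33 ± 0.096, lost without DMSO replicate 1 or 3 or ZnSO4 replicate 2 or 3).

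Of 20 genes of ER entry and export, 7 were lower and 1 higher with GSK-J4 at 6 h, but 2 lower and 8 higher at 24 h, while with ZnSO4 5 were lower and 0 higher at each time. The shares called of all genes were 20.4% and 32% with GSK-J4 and 9.32% and 9.56% with ZnSO4. The median log2FC of the list was -0.08 and 0.11 with GSK-J4 and -0.04 and 0.01 with ZnSO4 at 6 and 24 h. Without DMSO replicate 3 at 6 h 4 were lower and 1 higher with GSK-J4 and 3 lower with ZnSO4, and at 24 h with ZnSO4 2 were lower without DMSO replicate 2 and 3 without ZnSO4 replicate 3. SEC24D, a coat protein of vesicles that leave the ER, had 140, 133 and 136 CPM with GSK-J4 and 73.6, 77.5 and 71.1 CPM with DMSO at 24 h (log2FC 0.88 ± 0.067, edgeR adjusted p = 5.1e-17). SEC61A1, the channel through which chains enter the ER, was higher with GSK-J4 (0.28 ± 0.042) and lower with ZnSO4 (-0.26 ± 0.043) at 24 h, and so was SSR1 of the translocon (0.26 ± 0.046 and -0.15 ± 0.047, the ZnSO4 call lost without DMSO replicate 1 or 2 or ZnSO4 replicate 2 or 3). The signal peptidase subunit SPCS1 was lower with GSK-J4 at 6 h (-0.35 ± 0.056) and 24 h (-0.26 ± 0.055). MCFD2, a cargo receptor subunit, was higher with GSK-J4 at 24 h (0.4 ± 0.069).

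Of 9 tested of 12 B cell receptor and plasma cell surface genes, 3 were lower with GSK-J4 at 6 h and 1 at 24 h, where 0 and 1 were higher, and with ZnSO4 2 were lower and 0 higher at each time. The 2 of 9 called with GSK-J4 at 24 h were a smaller share than the 32% called of all genes. At 6 h that share was 20.4%, and with ZnSO4 it was 9.32% and 9.56%. The median log2FC of the list was -0.21 and -0.07 with GSK-J4 and -0.1 and -0.01 with ZnSO4. With ZnSO4 at 6 h 1 was lower without any 1 of the 6 libraries other than DMSO replicate 3. CD79B, a signalling chain of the B cell receptor, was lower with GSK-J4 at 6 h (12.8 CPM against 20.4 CPM with DMSO) and 24 h. TNFRSF17 (BCMA) was lower at 6 h with GSK-J4 (-0.23 ± 0.083) and ZnSO4 (-0.46 ± 0.085). Its GSK-J4 call was lost without DMSO replicate 3 or any GSK-J4 library (highest edgeR adjusted p = 0.54). TNFRSF17 was also lower with ZnSO4 at 24 h (log2FC -0.36). SDC1 was lower with GSK-J4 at 6 h (log2FC -0.23) and with ZnSO4 at 24 h (-0.3). These last 3 calls held under each left-out library. CD38 was higher with GSK-J4 at 24 h (0.41 ± 0.096). Of 9 genes of receptor diversification and the surrogate light chain only UNG and IGLL5 were tested, and both were lower with each compound at 6 h (medians -0.25 with GSK-J4 and -0.27 with ZnSO4). Without DMSO replicate 3, UNG was called with neither compound at 6 h (edgeR adjusted p = 0.18 and 0.46), and UNG with ZnSO4 also not without ZnSO4 replicate 1 or 3; IGLL5 with GSK-J4 at 6 h was not called without DMSO replicate 1 or 2 or GSK-J4 replicate 1 (highest 0.11). IGLL5 stood at 134, 138 and 132 CPM with GSK-J4, 131, 122 and 137 CPM with ZnSO4 and 174, 176 and 183 CPM with DMSO at 24 h, without overlap of either compound with DMSO (log2FC -0.4 ± 0.057 and -0.45 ± 0.059). UNG, a DNA glycosylase of class switching, was also lower with GSK-J4 at 24 h (-0.55 ± 0.077).

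RefSeq promoter windows, from 250 bases before to 50 after the start (GRCh38.p14), were at hand for 2 of the 145 genes, JCHAIN and MZB1. The octamer ATGCAAAT, searched on both strands, was in neither window, and in 1.77% of the 35116 windows of all genes. This says only that these letters are not in these windows.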

How the data were processed

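Bulk RNA-seq of 39 JJN3 libraries was analysed, in 13 groups of 3 taken from the labels. Per the labels' protocols, Trizol was used for extraction and the NEBNext Ultra RNA kit for the libraries. HISAT2 2.1.0 and hg19 are named in the submitters' processing notes; counting tool, annotation and strand setting: not given in the sources used here. What the authors deposited is 1 table of raw, whole-number counts for each gene and library. Of 57773 identifiers 39538 were named from the name table and 12800 from GENCODE 29 only (GRCh38), whose build differs from that of the files. It gave names, types, lengths and sequences, and 5435 identifiers have no name. The rule for members left out 172 variable and 8 constant pseudogenes, 33 diversity segments, 2 unprocessed pseudogenes and 2 protein-coding rows.

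All 39 libraries were fitted together with edgeR 4.0.16 (R 4.3.3): TMM scaling, a filterByExpr minimum count of 10, 13 group coefficients, quasi-likelihood F-tests, and Benjamini-Hochberg adjustment over the 14460 genes tested, called at adjusted p under 0.05. The fit had 26 residual and 34.7 prior degrees of freedom and a biological coefficient of variation of 4.8%. Each standard error is the absolute log2FC divided by the root of F, and 95% intervals use the moderated degrees of freedom. Shares were tested by exact permutation over libraries. DESeq2 1.42.0, other scalings, filters and sample sets, and leaving out each library were tried. The pipeline was tested on simulated data. Replicates are numbered in accession order and pair no samples across groups. Named genes are JCHAIN and MZB1, the 3 highest genes of each class, further genes past the filter, each gene called against DMSO, and up to 5 genes per list by smallest p. The genes, lists and rule were chosen with earlier results of these data known. The reference sequences of 1 further kappa pair are not reported here.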

Additional observations from a re-analysis of the deposited data

Results flagged for a closer look

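The effect of GSK-J4 against DMSO on IGKV3D-11 differed between 24 h and 6 h by -8.71 ± 2.1 on the log2 scale (edgeR's quasi-likelihood test of the difference of effects, Benjamini-Hochberg adjusted p = 0.0037; 5.75% of all genes were called in this test). It was the 1 gene of 15 called there. IGKV3D-11 entered the test only through 6 libraries of 34 to 177 counts. These include DMSO replicate 2 at 24 h and GSK-J4 replicate 2 at 6 h. The difference thus rests on libraries that admitted the gene, and its p is no evidence of a response. IGKV3D-11 had 4, 1 and 0 counts with GSK-J4 and 13, 177 and 3 with DMSO at 24 h, and 2, 88 and 0 with GSK-J4 and 2, 1 and 3 with DMSO at 6 h, so 1 library at each time held most counts. Without DMSO replicate 2 at 24 h or without GSK-J4 replicate 2 at 6 h the gene was not called (highest edgeR adjusted p = 0.76). For ZnSO4 the same test called 0 of 15 genes by edgeR and by DESeq2 (0.408% of all genes; 1 of the 15 at an unadjusted p under 0.05, IGHG1).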

How the results depend on the processing

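IGHG2 and IGHG1 were called lower with GSK-J4 against DMSO at 6 and 24 h, and IGHG3 at 6 h, under every alternative run; for IGHG2 leaving out each library gave log2FC of -0.68 to -0.49 at 6 h and -0.68 to -0.6 at 24 h. MZB1 at 6 h and IGKV3D-11 at 24 h lost their calls with robust moderation (edgeR adjusted p = 0.08 for each), an alternative added after seeing the data, as was a fit without the 24 h libraries. With GSK-J4 at 24 h, IGHA1, MZB1 and JCHAIN, not called as reported, were each called with the groups compared alone, IGHA1 also with robust moderation and MZB1 also with no filter. With no filter the number of genes called was 1 for GSK-J4 and 2 for ZnSO4 against DMSO at 1 h, 2 for ZnSO4 at 6 h, 1 for DMSO against T0 at 1, 3 and 6 h each, 1 for GSK-J4 against ZnSO4 at 24 h, 0 at 3 h, and 1 for the 24 h minus 6 h effect of ZnSO4. DESeq2 and a fit of the groups compared alone gave 0 for GSK-J4 against ZnSO4 at 3 h and 0 for the 24 h minus 6 h effect of GSK-J4. The genes called there in the main fit, IGLV3-9 and IGKV3D-11 in turn, got no adjusted p in DESeq2. With the groups compared alone they were not among the genes fitted. Those counts of 0 thus do not show that either gene was tested and failed. Robust moderation also gave 0 for the 24 h minus 6 h effect of GSK-J4, where IGKV3D-11 was tested and not called. GSK-J4 against ZnSO4 at 24 h gave 2 with the groups compared alone and 2 with library totals, the 24 h minus 6 h effect of GSK-J4 gave 2 with library totals, and RLE factors gave 1 for ZnSO4 at 6 h. Leaving out each library gave 0 to 1 calls for DMSO against T0 at 1 h, 0 to 4 at 3 h and 0 to 4 at 6 h, 0 to 1 for ZnSO4 against DMSO at 6 h and 1 to 2 at 24 h, 0 to 1 for GSK-J4 against ZnSO4 at 3 h and at 24 h, and 0 to 1 for the 24 h minus 6 h effect of GSK-J4. JCHAIN in DMSO at 24 h against T0 reversed to -0.076 with library totals (edgeR adjusted p = 0.12). Apart from the missing tests of IGLV3-9 and IGKV3D-11, the cause of these changes was not tested. Leaving the immunoglobulin genes out of the scaling changed none of the 18 counts. Of the counts of called genes in the 6 lists, changes of over 1.5 times, or to or from 0, came in 53 (fewer) and 22 (more) of the cases with 1 library left out, against 645 without, and in 11 (fewer) and 6 (more) with no filter, 5 and 11 with library totals, 4 and 12 with the groups compared alone, 2 and 7 with DESeq2, 0 and 2 with RLE factors and 1 and 0 with robust moderation, of 108 each. No paired analysis was possible because the labels give no replicate numbers shared between groups. Depth limits the genes with a mean under 3 CPM (IGHG4 and below), for which a library held few counts.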
